A study of Mus musculus with 8 samples.

Results

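The HoxA cluster holds a row of homeobox genes side by side on mouse chromosome 6, and 9 of its genes were followed here one by one through multipotent progenitors (MPPs) with and without the NUP98-HOXA10hd fusion (NA). The 9 genes, Hoxa2, Hoxa3, Hoxa4, Hoxa5, Hoxa6, Hoxa7, Hoxa9, Hoxa10 and Hoxa11, were taken by name from the 37980 gene rows of the deposited table, and all 9 had a row. RNA of 4 NA and 4 wild-type (WT) libraries was sequenced, each made from 1000 MPPs of bone marrow sorted as Lin-CD48-ckit+Sca1+CD135+CD150- cells. NA mice carried one NA LSL/+ allele with Vav-Cre on the C57BL/6 background, so that the fusion was expressed from the Rosa26 locus in blood-forming cells once Cre had removed a stop cassette. WT mice were CD45.2 C57BL/6 mice without the fusion. The study calls WT mice age-matched in its cell cycle assay of MPPs, and neither the age itself nor the sex of the donors was given. The libraries are named NA1 to NA4 and WT1 to WT4 after their titles, which do not say whether they came from separate mice, so the p-values below measure the spread between these libraries.

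Hox genes encode transcription factors that bind DNA through a homeodomain, and their order along the chromosome follows the order in which they are used along the body axis. In blood, genes of the middle and posterior cluster, above all Hoxa9 and Hoxa10, are active in stem cells and early progenitors and are shut down as cells mature. Hox proteins bind DNA with Pbx and Meis partners, and the cluster is kept active by the MLL (Kmt2a) complex and silenced by Polycomb proteins. NUP98-HOX fusions join the nucleoporin NUP98 to a Hox homeodomain, and the comparison of NA with WT MPPs asked which members of the cluster differed when such a fusion was present.

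All 9 genes lie on the minus strand of chromosome 6 (mm10, GENCODE M21). Hoxa2, at chr6:52162417-52164831, is the first of the 9 and Hoxa11, at chr6:52242106-52245810, is the last. Hoxa5 spans chr6:52201754-52204587, Hoxa7 chr6:52214491-52221854, Hoxa9 chr6:52223100-52231089 and Hoxa10 chr6:52231197-52240854. All 9 are annotated as protein-coding. The 250 bases before the start site are shown for Hoxa5 and Hoxa10, which had the largest changes, for Hoxa9, which had the highest level, and for Hoxa2, whose groups overlapped. RefSeq (GRCm38.p6) places Hoxa10 at an outer and an inner start, so it has 2 windows. The sequences read 5′ to 3′ on the strand of the gene, and none of these windows overlaps an annotated exon. Capitals mark the letters of 4 motifs on either strand: TGACAG (the Meis motif), TGATTTAT (a Pbx-Hox motif), CCAAT and TATAAA.
Hoxa2, chr6:52164832-52165081: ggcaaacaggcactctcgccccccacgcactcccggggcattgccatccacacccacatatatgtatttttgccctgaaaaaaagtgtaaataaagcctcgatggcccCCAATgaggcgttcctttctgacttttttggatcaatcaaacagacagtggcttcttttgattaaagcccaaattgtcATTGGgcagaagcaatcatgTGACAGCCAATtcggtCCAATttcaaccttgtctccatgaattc
Hoxa5, chr6:52204588-52204837: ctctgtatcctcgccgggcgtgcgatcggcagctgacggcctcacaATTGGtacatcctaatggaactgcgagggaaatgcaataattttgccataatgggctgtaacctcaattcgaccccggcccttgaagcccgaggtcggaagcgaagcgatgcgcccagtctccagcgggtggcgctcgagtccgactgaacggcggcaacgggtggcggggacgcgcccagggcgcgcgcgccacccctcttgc
Hoxa9, chr6:52227371-52227620: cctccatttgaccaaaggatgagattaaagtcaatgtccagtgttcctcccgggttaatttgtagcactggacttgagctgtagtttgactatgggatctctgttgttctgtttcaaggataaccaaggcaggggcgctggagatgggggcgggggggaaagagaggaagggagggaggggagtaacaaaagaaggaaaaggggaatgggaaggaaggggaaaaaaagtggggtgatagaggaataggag
Hoxa10 outer start, chr6:52240855-52241104: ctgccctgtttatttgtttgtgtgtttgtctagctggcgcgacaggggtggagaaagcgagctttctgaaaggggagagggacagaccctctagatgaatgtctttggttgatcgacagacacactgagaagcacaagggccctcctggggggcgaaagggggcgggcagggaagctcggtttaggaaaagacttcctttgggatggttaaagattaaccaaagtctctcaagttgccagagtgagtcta
Hoxa10 inner start, chr6:52234940-52235189: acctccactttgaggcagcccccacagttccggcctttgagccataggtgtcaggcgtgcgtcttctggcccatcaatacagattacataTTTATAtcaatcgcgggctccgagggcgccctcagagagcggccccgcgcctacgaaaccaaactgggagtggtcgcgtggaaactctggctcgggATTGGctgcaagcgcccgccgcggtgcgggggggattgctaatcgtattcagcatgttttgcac

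Windows were found for 8 of the 9 genes, 9 windows in all. The Meis letters were in 2 of these 9 windows, those of Hoxa2 and Hoxa3, against 15.9% of all 32851 mouse promoter windows of this length. The Pbx-Hox letters were in 0 of the 9, against 0.837% of all windows. CCAAT was in 4 of the 9, those of Hoxa2, Hoxa5, Hoxa6 and the inner start of Hoxa10, against 33.9% of all windows. TATAAA was in 1, the inner start of Hoxa10, against 12.4%. In the Hoxa2 window the Meis letters run directly into one of its 4 CCAAT matches. The windows of Hoxa9 and of the outer Hoxa10 start held none of the 4 motifs. A match describes letters only and not a bound site.

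Values are normalised counts, that is, estimated reads of a gene divided by a size factor of the library. Estimated depth ran from 3876893 to 4916987 reads, and NA4, WT2 and WT3 were the 3 shallow libraries, at 3876893 to 3960950. NA4 and WT4 were closer to a weighted sum of the other 3 libraries of their group than any other library of the same group was, with an excess variance left after the best sum of 0.00771 for NA4 against 0.0125 to 0.0356 for NA1 to NA3, and of 0.00169 for WT4 against 0.00645 to 0.0207 for WT1 to WT3. Results are therefore also given without NA4 and WT4 (the fourth libraries). The Y-linked transcript Eif2s3y was at 604 ± 70.8 normalised counts in NA MPPs against 0.222 ± 0.444 in WT MPPs (SD, n = 4 each), whereas Xist was at 1.92 ± 1.0 and 1104 ± 173 (SD, n = 4 each). Ddx3y, Kdm5d and Uty were also higher in NA MPPs, so donor sex and genotype cannot be told apart. Of the genes behind the sort, Kit, Flt3 and Slamf1 did not pass the test, while Ly6a fell by 0.28 and Cd48 fell by 1.58 on the log2 scale (limma adjusted p = 0.0257 and 0.00711). Ms4a1, Cd3e, Cd3g, Cd8a, Elane, Mcpt8, Prss34 and Cdh5, which mark other cell types, were at 0 in all 8 libraries, while other genes of the same marker lists were abundant in both groups, such as Car2 (4772 ± 297 in NA, 4523 ± 71.4 in WT), Lyz2 (1697 ± 46.2, 1828 ± 132), Prtn3 (1523 ± 154, 2028 ± 292), Cd79b (163 ± 55.0, 220 ± 32.7) and Nkg7 (140 ± 7.18, 125 ± 11.2, all as normalised counts with SD, n = 4).

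Hoxa5 rose 3.07-fold and Hoxa10, whose row cannot be separated from reads of the fusion, rose 2.34-fold, Hoxa9, Hoxa3 and Hoxa7 rose by smaller amounts, Hoxa2 and Hoxa4 did not pass the test, Hoxa6 was near 0 and Hoxa11 was at 0 in every library. Of the 9 members, 7 were at 10 or more normalised counts in all 8 libraries and were tested. Of these 7, 5 were higher in NA MPPs, 0 were lower and 2 were not called (limma, adjusted p below 0.05 over the 11451 genes tested), where 10.1% of all tested genes were called higher, 7.87% lower and 17.9% in either direction. The same 5 members had every NA value above every WT value, which held for 11.5% of all tested genes, and 0 members had every NA value below, which held for 10.5%. The median log2 fold change of the 7 was 0.68, against -0.01 over all tested genes. Without the fourth libraries 3 members were called, Hoxa5, Hoxa9 and Hoxa10, and 3.31% of all tested genes were called higher and 4.58% in either direction.

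**Figure D1:**
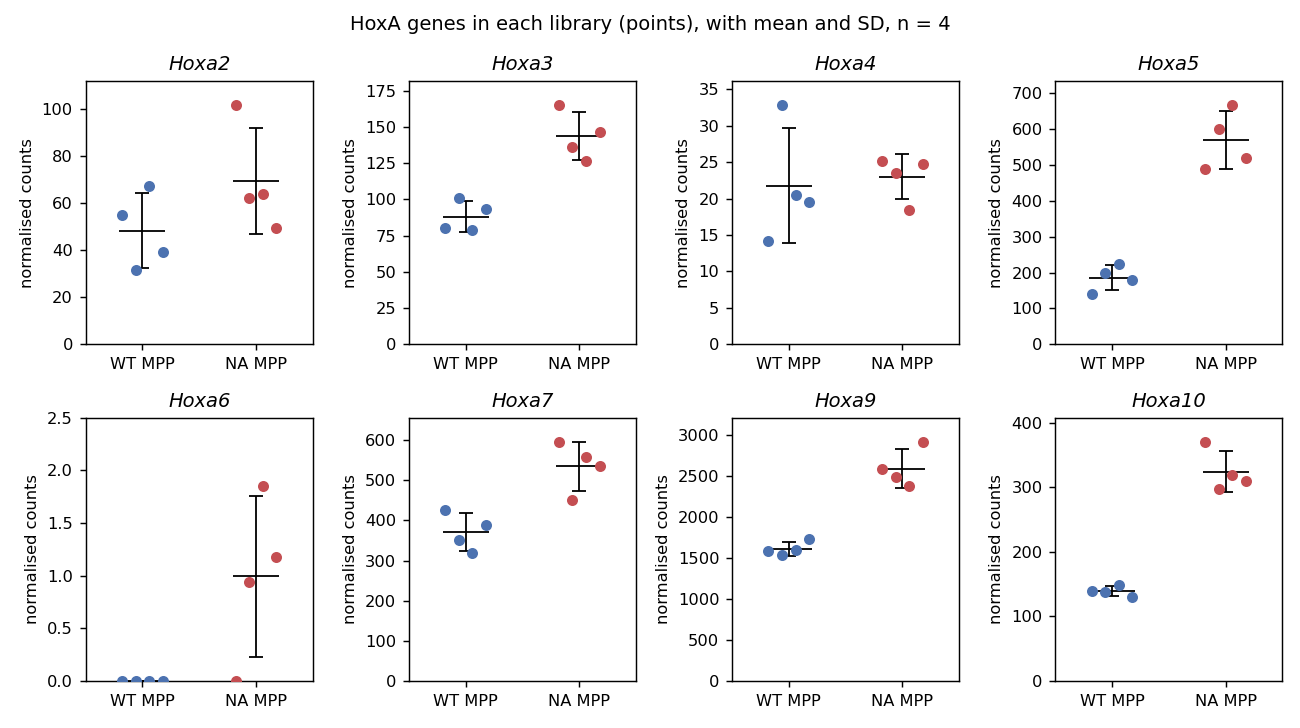
Normalised counts (y axis, from 0) of the 8 HoxA genes with any reads in each WT and NA MPP library (points), with the mean (long bar) and SD (error bar) of 4 libraries per group. The NA points of Hoxa3, Hoxa5, Hoxa7, Hoxa9 and Hoxa10 all sit above the WT points, those of Hoxa2 and Hoxa4 overlap, and Hoxa6 stays below 2 normalised counts.

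Hoxa5, a mid-cluster gene needed for lung and axial skeleton development, had the largest change of the members. It was at 490, 600, 667 and 521 normalised counts in NA1 to NA4 and at 140, 199, 223 and 178 in WT1 to WT4. The groups were far apart, with the lowest NA library at 490 and the highest WT library at 223. The means were 570 ± 80 in NA MPPs against 185 ± 35.1 in WT MPPs (SD, n = 4 each), a ratio of 3.07. The log2 fold change was 1.62 ± 0.15 (SE, 95% interval 1.30 to 1.95, limma adjusted p = 8.87e-06), which ranked 172 among the 11451 tested genes from the largest rise down. Leaving out NA4 and WT4 gave 1.65 (limma adjusted p = 0.000317). All exon bases of Hoxa5 are its own in the annotation, with no overlapping gene.

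Hoxa10 is the gene whose homeodomain the fusion carries, and its product acts in stem and myeloid progenitor cells. It was at 371, 298, 320 and 309 normalised counts in NA1 to NA4 and at 139, 138, 149 and 130 in WT1 to WT4. The groups did not overlap, and the WT libraries lay close together, between 130 and 149. The means were 324 ± 32.0 and 139 ± 8.0 (SD, n = 4 each), a ratio of 2.34. The log2 fold change was 1.21 ± 0.13 (SE, 95% interval 0.94 to 1.49, limma adjusted p = 2.57e-05), rank 336 among all tested genes, and without the fourth libraries it was 1.20 (limma adjusted p = 0.00162). The table has 1 row for Hoxa10 and 1 for Nup98 and none for the fusion, so reads of the fusion transcript and of the endogenous genes cannot be told apart. Nup98, which encodes a component of the nuclear pore, was at 85.0 ± 10.9 in NA MPPs against 72.2 ± 12.1 in WT MPPs (SD, n = 4 each) and did not pass the test (log2 change 0.24, limma adjusted p = 0.443).

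Hoxa9, which promotes self-renewal of stem cells and progenitors, was the most abundant member in every library. It was at 2578, 2481, 2368 and 2913 normalised counts in NA1 to NA4 and at 1580, 1538, 1589 and 1730 in WT1 to WT4. Every NA value was above every WT value, and NA4 and WT4 were the highest of their groups. The means were 2585 ± 235 and 1609 ± 83.7 (SD, n = 4 each), and the log2 change was 0.68 ± 0.08 (SE, 95% interval 0.51 to 0.86, limma adjusted p = 9.38e-05). Leaving out the fourth libraries gave 0.66 (limma adjusted p = 0.00125). The single gene row does not split the 5 annotated Hoxa9 transcripts, and 98.5% of Hoxa9 exon bases are shared with no other gene.

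Hoxa7, the neighbour of Hoxa9 and a gene of axial skeleton patterning, was at 597, 451, 558 and 536 normalised counts in NA1 to NA4 and at 427, 351, 318 and 389 in WT1 to WT4. The gap between the groups was narrow, from WT1 at 427 to NA2 at 451. The means were 535 ± 61.4 and 371 ± 47.3 (SD, n = 4 each), and the log2 fold change was 0.53 ± 0.12 (SE, 95% interval 0.27 to 0.79, limma adjusted p = 0.00892). Without the fourth libraries the change was 0.55 and no longer passed the test (limma adjusted p = 0.0725). Of Hoxa7 exon bases, 20.4% lie opposite the antisense transcript Hoxaas3, which held 2.66 to 12 normalised counts per library. Whether counting used the strand is not given in the sources used here.

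Hoxa3, which patterns the pharyngeal organs such as thymus and parathyroid, was at 165, 136, 126 and 146 normalised counts in NA1 to NA4 and at 79.9, 101, 78.6 and 93.2 in WT1 to WT4. No NA library was as low as the highest WT library. The means were 144 ± 16.5 and 88.1 ± 10.7 (SD, n = 4 each), and the log2 fold change was 0.70 ± 0.17 (SE, 95% interval 0.34 to 1.06, limma adjusted p = 0.0117). Without the fourth libraries it was 0.72 and did not pass the test (limma adjusted p = 0.108). Hoxa3 is the longest of the genes and spans Hoxa4, Hoxa5 and Hoxa6 on the same strand, and 72.9% of its exon bases are shared with no other gene.

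Hoxa2 and Hoxa4 were measured in every library but their groups overlapped. Hoxa2, a gene of hindbrain and pharyngeal arch patterning, was at 102, 62.0, 63.7 and 49.6 normalised counts in NA1 to NA4 and at 55.0, 31.7, 67.2 and 39.1 in WT1 to WT4. NA1 alone lay above all WT libraries, and WT3 was above NA2, NA3 and NA4. The log2 fold change was 0.52 ± 0.29 (SE, 95% interval -0.10 to 1.15, limma adjusted p = 0.233), and 0.58 without the fourth libraries (limma adjusted p = 0.399). The interval holds the values of Hoxa3, Hoxa7 and Hoxa9. The SD was 32.5% of the mean in NA and 33.0% in WT MPPs, against 11.9% and 14.5% from read counting alone.

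Hoxa4, a gene of cervical vertebra patterning, was at 25.2, 23.5, 18.5 and 24.8 normalised counts in NA1 to NA4 and at 14.2, 32.8, 20.5 and 19.5 in WT1 to WT4. The highest and the lowest value were both in WT libraries. The log2 fold change was 0.13 ± 0.35 (SE, 95% interval -0.63 to 0.88, limma adjusted p = 0.840), an interval that holds the values of Hoxa3, Hoxa7 and Hoxa9 as well as 0. It was 0.06 without NA4 and WT4 (limma adjusted p = 0.967). Only 93 estimated reads in all NA libraries and 85 in all WT libraries lay behind these values. Read counting alone gives an SD of 20.9% of the mean in NA MPPs, where 13.5% was observed, and of 21.9% in WT MPPs, where 36.2% was observed.

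Hoxa6 and Hoxa11 were below the filter on low values. Hoxa6, which lies between Hoxa5 and Hoxa7, was at 0, 0.940, 1.85 and 1.18 normalised counts in NA1 to NA4, which are 0, 1, 2 and 1 estimated reads, and at 0 in all 4 WT libraries. Reads were thus in 3 of 4 NA and 0 of 4 WT libraries, and the difference did not pass an exact two-sided permutation test (p = 0.143, where 4 against 4 libraries cannot go below 0.0286). Hoxa11, a gene of limb, kidney and uterus development at the posterior side of Hoxa10, was at 0 in all 8 libraries. A count of 0 allows up to 3 reads, which are 2.66 to 3.54 normalised counts depending on the library, and all Hoxa6 values were also below that limit, so no fold is given for either gene. These limits cover counting error only, since amplified cDNA gives reads that are not independent molecules. Hoxa5 and Hoxa7, the neighbours of Hoxa6 on either side, were 2 of the 4 members with the most reads, with 2327 and 2177 estimated reads over the NA libraries.

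**Figure D2:**
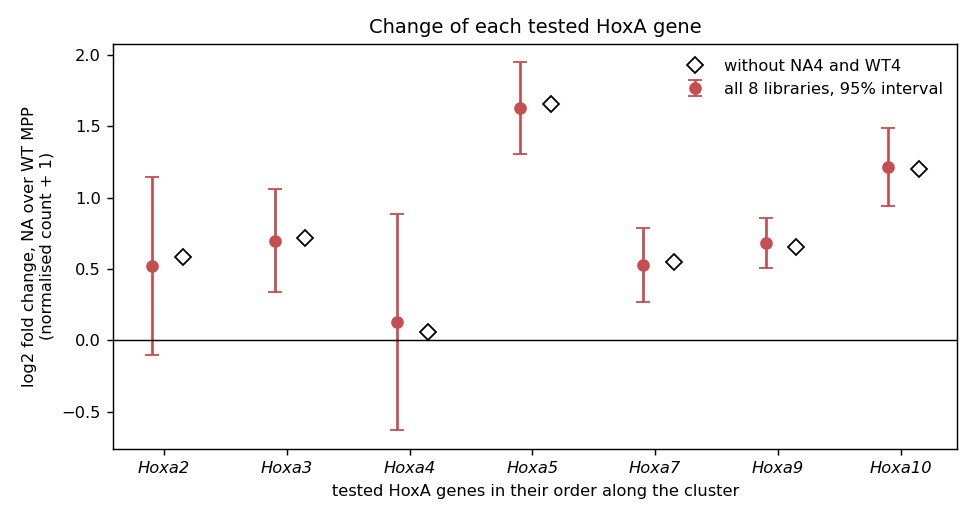
Log2 fold change of NA over WT MPP (y axis, on the normalised count + 1 scale) for the 7 tested HoxA genes in cluster order (x axis). Filled points with bars give the limma estimate and 95% interval from all 8 libraries, and open diamonds the estimate without NA4 and WT4: the intervals of Hoxa5 (1.30 to 1.95) and Hoxa10 (0.94 to 1.49) lie above that of Hoxa9 (0.51 to 0.86), and those of Hoxa2 and Hoxa4 cross 0.

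The changes had no even slope along the chromosome. From Hoxa2 to Hoxa10 the log2 fold changes were 0.52, 0.70, 0.13, 1.62, 0.53, 0.68 and 1.21 for the 7 tested members, so that the largest change, at Hoxa5, sat between the smallest, at Hoxa4, and the gene with almost no reads, Hoxa6. To compare members without any effect of library scaling, each was divided by Hoxa9 in the same library. Hoxa9 exceeded Hoxa5 by 3.55 to 5.59 times in NA libraries and by 7.12 to 11.3 times in WT libraries, with no overlap. It exceeded Hoxa10 by 6.96 to 9.41 times in NA and 10.7 to 13.4 times in WT libraries, again with no overlap.

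Relative to Hoxa9, Hoxa5 was higher in NA than in WT MPPs by 0.95 on the log2 scale and Hoxa10 by 0.54, each in 4 of 4 libraries (exact two-sided permutation p = 0.0286 for both, the smallest that 4 against 4 libraries allow). Adjusted over the 6 ratios compared, both were at 0.0857 and did not pass 0.05, and 0 of the 6 ratios did. With 4 against 4 libraries a ratio can pass this adjustment only if most of the 6 reach the smallest p. The adjusted test therefore cannot decide on Hoxa5 and Hoxa10 alone. The differences without NA4 and WT4 were 0.9986 and 0.55, where the smallest exact p is 0.1. The log2 ratio of Hoxa4 to Hoxa9 differed by -0.55 (exact permutation p = 0.0857, adjusted p = 0.171). The ratios of Hoxa7 and Hoxa2 differed by -0.15 each (exact permutation p = 0.314 and 0.686), and that of Hoxa3 by 0.02 (exact permutation p = 0.83). Hoxa5 over Hoxa10, given as a description, was 1.32 to 2.09 in NA and 1.013 to 1.496 in WT libraries, which overlap.

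**Figure D3:**
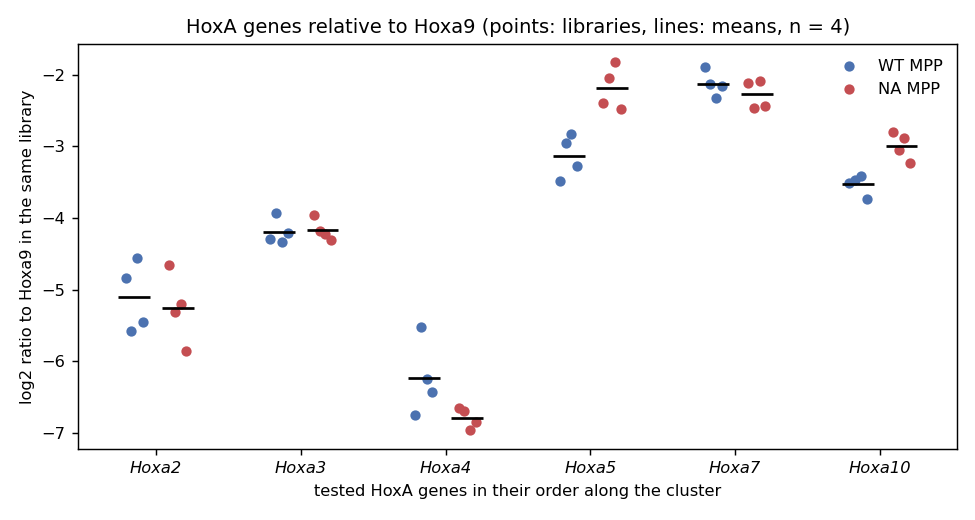
Log2 ratio of each of the other 6 tested HoxA genes to Hoxa9 in the same library (y axis) in cluster order (x axis), with libraries as points and group means (n = 4) as lines. The NA points lie above all WT points for Hoxa5 and Hoxa10 and overlap them for the other 4 genes.

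Added up, the 9 members reached 4328, 4052, 4123 and 4501 normalised counts in NA1 to NA4 and 2435, 2392, 2446 and 2579 in WT1 to WT4. The NA mean of 4251 ± 203 was 1.73 times the WT mean of 2463 ± 80.9 (SD, n = 4 each). Hoxa9 made up 60.7% ± 3.07 of this sum in NA MPPs against 65.3% ± 1.22 in WT MPPs (SD, n = 4 each), and the ranges, 57.4% to 64.7% and 64.3% to 67.1%, overlapped. The share of Hoxa5 was 13.5% ± 2.41 in NA MPPs against 7.53% ± 1.49 in WT MPPs (SD, n = 4 each), and that of Hoxa10 was 7.64% ± 0.715 and 5.65% ± 0.450. For both genes the shares of the groups did not overlap. Hoxa7 held 12.6% ± 1.28 in NA and 15.1% ± 1.88 in WT MPPs, with overlap. In bulk libraries, more cells that express a gene and more RNA per cell cannot be told apart.

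Levels of different genes were compared per kb of the longest annotated transcript. In NA MPPs the order was Hoxa9 (801 ± 72.7 normalised counts per kb), Hoxa5 (303 ± 42.6), Hoxa7 (264 ± 30.2), Hoxa10 (127 ± 12.5), Hoxa3 (55.4 ± 6.39), Hoxa2 (39.0 ± 12.7), Hoxa4 (14.4 ± 1.95) and Hoxa6 (1.14 ± 0.875), with Hoxa11 at 0 (SD, n = 4). In WT MPPs it was Hoxa9 (499 ± 25.9), Hoxa7 (183 ± 23.3), Hoxa5 (98.7 ± 18.7), Hoxa10 (54.1 ± 3.12), Hoxa3 (34.0 ± 4.14), Hoxa2 (27.2 ± 8.98) and Hoxa4 (13.7 ± 4.95), with Hoxa6 and Hoxa11 at 0 (SD, n = 4). The orders differed only in the place of Hoxa5 and Hoxa7. Hoxa7 was above Hoxa5 in 4 of 4 WT libraries, with no overlap of their ranges, and Hoxa5 was above Hoxa7 in 3 of 4 NA libraries, where the ranges overlapped. With the median transcript length in place of the longest, Hoxa7 ranked second in both groups. With NA4 and WT4 left out the means of Hoxa5 and Hoxa7 were 312 and 263 in NA and 99.9 and 180 in WT MPPs. Hoxa3 and Hoxa2 also overlapped in both groups, as did Hoxa2 and Hoxa4 in WT MPPs, and Hoxa9 stood clear of the next gene in all 8 libraries. Along the chromosome, Hoxa6 was at or near 0 between Hoxa5 and Hoxa7, and Hoxa11 was at 0 beyond Hoxa10.

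**Figure D4:**
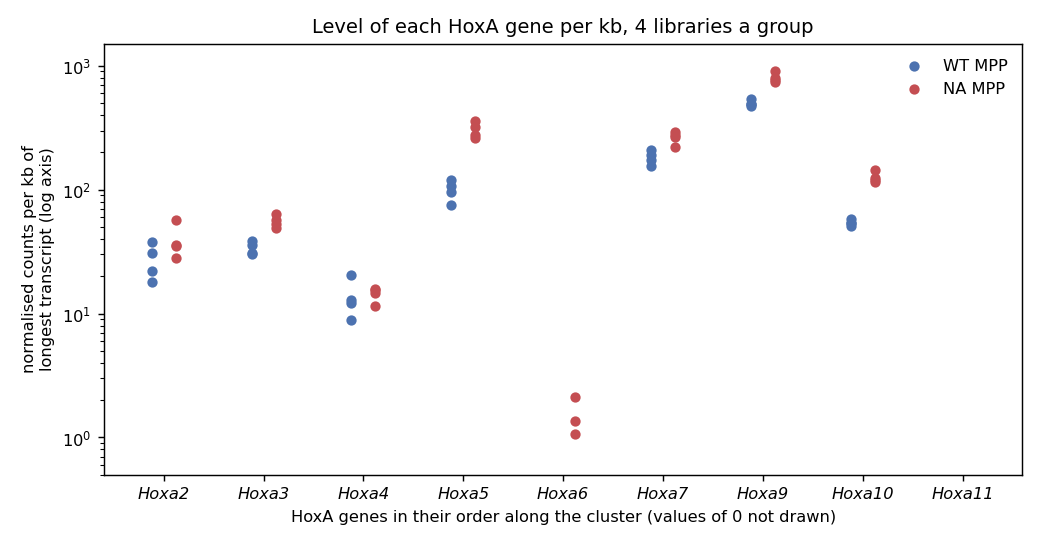
Normalised counts per kb of the longest transcript (y axis, log scale) for the 9 HoxA genes in cluster order (x axis), with one point per WT or NA MPP library. Values of 0 are not drawn, so Hoxa11 has no point and Hoxa6 has 3 NA points; Hoxa9 is highest in both groups, and Hoxa5 moves from below Hoxa7 in WT to beside it in NA MPPs.

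Over the 8 libraries, Pearson r of log2(normalised count + 1), given as a description with no test, was 0.95 between Hoxa9 and Hoxa10 and 0.95 between Hoxa5 and Hoxa10. Both genes of each pair differed between the groups, and among the deviations from the group means r was -0.20 and -0.08. The genes outside the cluster whose pattern over the 8 libraries was most like that of Hoxa9 were Armcx5 (r = 0.994), Pdpk1 (0.993) and Pip4p2 (0.992), and for Hoxa10 they were Tmem243 (0.995), Calm3 (0.994) and Sva (0.994). By deviations from the group means they were Hnrnpa0 (0.972), Tmem59 (0.966) and Cep68 (0.954) for Hoxa9, and 4931428F04Rik (0.974), Gm2a (0.966) and H2-Ke6 (0.962) for Hoxa10. No gene was on both lists of Hoxa9 or on both lists of Hoxa10.

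Of the 6 tested genes that flank the cluster, 3 were higher in NA MPPs and 0 lower, against 10.1% and 7.87% of all tested genes. Cbx3, a heterochromatin protein gene of the flanking region, was at 171 ± 49.7 and 46.2 ± 15.2 (SD, n = 4 each), and its log2 change was 1.88 (limma adjusted p = 0.000237). Snx10, a sorting nexin gene, and Skap2, an adaptor protein gene, were higher by 0.53 and 0.45 on the log2 scale (limma adjusted p = 0.00644 and 0.00839). Hnrnpa2b1, Hibadh and Tax1bp1, which also flank the cluster, lay between -0.12 and 0.15 and did not pass the test. Hoxa13, Evx1, Hottip, Halr1 and Evx1os were at 0 in all libraries. Of the 3 flanking genes that were higher, 1 was called without the fourth libraries, where 4.58% of all tested genes were.

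Other Hox clusters were nearly silent. Of 28 listed genes of the HoxB, HoxC and HoxD clusters, 27 were in the table, 10 were above 0 in any library and 3 were tested. Hoxb4, a gene that expands stem cells when overexpressed, was at 19.95 ± 5.02 in NA MPPs against 7.34 ± 1.92 in WT MPPs (SD, n = 4 each), and its log2 change was 1.33 (limma adjusted p = 0.0495). It was tested only through its NA values, since every WT value was below 10, so the filter itself favoured a gene that is higher in NA MPPs. No gene of the list was called in 16 of 21 alternatives, among them no filter, total-count scaling and leaving out the fourth libraries. Hoxb5 and Hoxb2 had log2 fold changes of 0.44 and 0.54 and did not pass the test (limma adjusted p = 0.395 and 0.508).

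**Figure D5:**
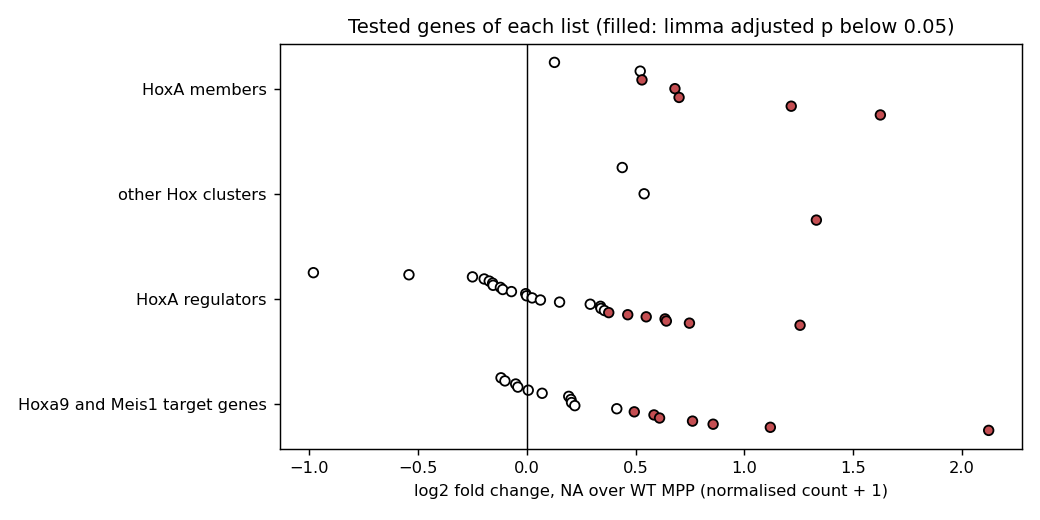
Log2 fold change of NA over WT MPP (x axis, on the normalised count + 1 scale) for each tested gene (points) of the HoxA members and of 3 other lists (y axis), with filled points for limma adjusted p below 0.05. All filled points lie to the right of 0, and the list of regulators spreads over both sides of it with a median of 0.04.

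Regulators and targets of Hox proteins were higher in part, whereas the partner gene Meis1 did not pass the test. Meis1, the partner that acts with Hoxa9 in leukaemia, was at 1391 ± 40.7 and 1433 ± 61.2 (SD, n = 4 each), and its log2 change was -0.04 (limma adjusted p = 0.730).

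Of 26 tested regulators of the cluster, 7 were higher and 0 lower in NA MPPs, where 10.1% of all tested genes were higher and 7.87% lower, and their median log2 fold change was 0.04. The largest rises were those of Kdm6b, which encodes a demethylase of the Polycomb mark on histone H3, and of Psip1, which tethers the MLL complex to chromatin. Kdm6b was at 192 ± 41.7 in NA MPPs against 82.7 ± 31.8 in WT MPPs (SD, n = 4 each), and its log2 change was 1.26 (limma adjusted p = 0.00295). Psip1 was at 1008 ± 151 and 596 ± 32.5 (SD, n = 4 each), and its log2 change was 0.75 (limma adjusted p = 0.000415). The other 5 were the MLL-side genes Kmt2a and Mllt3, the Polycomb genes Bmi1 and Rnf2, and the cohesin gene Rad21, which belongs to neither side. The Cdx genes Cdx1, Cdx2 and Cdx4 were at 0 in all libraries, and without the fourth libraries 4 regulators were called, where 4.58% of all tested genes were.

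Of 18 listed target genes of Hoxa9 and Meis1, all tested, 7 were higher and 0 lower in NA MPPs, beside the same 10.1% and 7.87% of all tested genes, with a median log2 fold change of 0.21. Sox4, a transcription factor gene of early blood progenitors, was at 2663 ± 256 in NA MPPs against 609 ± 16.3 in WT MPPs (SD, n = 4 each), and its log2 change was 2.12 (limma adjusted p = 1.46e-09). Id2, an inhibitor of basic helix-loop-helix factors, was at 51.2 ± 3.13 and 23.8 ± 7.04 (SD, n = 4 each), and its log2 change was 1.12 (limma adjusted p = 0.0174). The other 5 were Cdk6, Ccna2, Gfi1, Lmo2 and Myb. Without the fourth libraries 5 of the 18 were called, where 4.58% of all tested genes were.

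Some markers of other stages also differed between the groups. The summed level of 10 long-term stem cell markers was 7596 to 8678 normalised counts in NA and 5679 to 5898 in WT libraries, where 3 of the 10, Hlf, Procr and Mllt3, were higher and 1, Tek, was lower. Hlf, the most abundant of the 10, was at 4185 ± 259 in NA MPPs against 2198 ± 101 in WT MPPs (SD, n = 4 each). Its log2 change was 0.93 (limma adjusted p = 1.86e-06), and its rise made up most of the difference between the sums. The other 6 genes were not called, and the median log2 fold change of the list was -0.04. The sum of 6 lymphoid progenitor markers was 176 to 191 in NA and 468 to 653 in WT libraries. Both tested genes of that list, Dntt and Ighm, were lower, with log2 fold changes of -2.53 and -1.20 (limma adjusted p = 5.47e-06 and 0.000383). The sum of 9 neutrophil and monocyte markers was 3120 to 3362 in NA and 3563 to 4584 in WT libraries, with Mpo and Prtn3 lower and Elane at 0. T and NK cell markers summed to 146 to 161 in NA and 120 to 145 in WT libraries, with Cd3e, Cd3g and Cd8a at 0. The 2 tested genes of that list, Nkg7 and Klrb1c, were not called (limma adjusted p = 0.492 and 0.208). The sums of the erythroid, megakaryocyte, mature B cell, mast cell and basophil, and stroma and endothelium lists overlapped between the groups. Within the erythroid list, whose sum is mostly Car2, the globin gene Hbb-bt was lower in NA MPPs, at 41.2 ± 11.98 and 163 ± 24.0 (SD, n = 4 each, log2 change -1.99, limma adjusted p = 6.79e-05). The part of these shifts in the HoxA values was not tested.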

How the data were processed

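The deposited table held RSEM gene counts that the authors had divided by a size factor per library, a normalised signal rather than raw counts. Per the labels, bcl2fastq, RSEM, DESeq2 and the mm10 build were used, and annotation, versions and strand use are not given in the sources used here. Depth and reads per gene were estimated by dividing each library by the value of 1 read, the step of its low values, and reached 3876893 to 4916987 reads. Symbols, transcript lengths and coordinates came from GENCODE M21, which named 32916 of 37980 rows, and promoter windows came from RefSeq (GRCm38.p6).

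NA was compared with WT on log2(normalised count + 1) with limma 3.58.1 in R 4.3.3, with a mean-variance trend and no covariates. Genes at 10 or more in at least 4 of the 8 libraries entered, and p-values were Benjamini-Hochberg adjusted over 11451 genes at a threshold of 0.05. The added 1 shrinks fold changes of low genes. Ratios to Hoxa9 were taken after adding 0.5 to both genes and compared with exact two-sided permutation tests (scipy 1.17.1) over the 70 assignments.

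The 9 genes, the gene and marker lists and the tests were chosen with earlier results of these data known. Named were the 9 members, Nup98, the 5 sex-linked genes, 3 genes most like Hoxa9 and Hoxa10 by each measure, and, of each list, all called genes or, if over 5 were called, those with the 2 largest rises and falls. Other list genes were named after their values were seen, and results of some list genes are not reported here. Groups came from the titles. Alternatives varied the added constant, the filter, the scaling, the variance trend, depth class, GC content, a replicate block and the libraries included.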

Additional observations from a re-analysis of the deposited data

How the results depend on the processing

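The number of HoxA members called was 5 under all alternatives run, each library left out in turn included (5 to 5), except without NA4 and WT4 together, where it was 3. The log2 fold changes of the called members ranged from 1.498 to 1.72 for Hoxa5, 1.15 to 1.25 for Hoxa10, 0.61 to 0.76 for Hoxa9, 0.46 to 0.66 for Hoxa7 and 0.63 to 0.77 for Hoxa3. Hoxa4 changed sign, with a range of -0.047 without WT1 to 0.337 over the libraries left out in turn. None of the 6 ratios to Hoxa9 passed after adjustment under any setting, although those of Hoxa5 (0.83 to 1.05) and Hoxa10 (0.47 to 0.62) kept their direction with each library left out. With fewer libraries or with 4 pairs (smallest p 0.125) these exact tests could not have passed. With all 8 libraries a ratio could have passed only if most of the 6 had reached the smallest exact p of 0.0286. The ratio of Hoxa3 was -0.0040 with a constant of 5 and ranged from -0.0474 to 0.11 with 1 library left out, and that of Hoxa2 from -0.36 to 0.0462.

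Over all genes, 2053 were called, and 1125 without NA4, 1279 without WT4 and 524 without both; 1420 without the variance trend, 1574 without the filter, 1635 with depth class and 2240 with total-count scaling, which moved the median log2 fold change to -0.08. Deviations of same-numbered NA and WT libraries correlated at 0.0874, 0.0271, 0.0131 and 0.158, so the numbers were not taken to pair the libraries, and not every library correlated best with its own number. With the replicate block 2004 genes and 5 HoxA members were called, and with the block and the GC trend removed 1840 and 5. Count models planned on recovered whole reads were not run, because fractions of reads remain in the table. Few or no reads limit Hoxa4, Hoxa6 and Hoxa11, and the sex difference, the unstated origin of the libraries and the closeness of NA4 and WT4 to sums of other libraries touch every comparison.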
